A study of Mus musculus with 9 samples.

Results

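Transcripts of 8 genes of mineralization and phosphate handling were examined in MC3T3 osteoblasts and mouse pulmonary endothelial cells (ECs). The genes were picked by name for their known roles, with earlier results of these data known: Alpl, Enpp1, Phospho1, Smpd3, Slc20a1, Slc20a2, Phex and Mgp. They are 8 of the 50686 genes in the deposited count table, and all 8 were among the 15531 genes that passed the count filter and were tested. Enpp1 passed it only through its counts after SB216763. RNA-Seq libraries came from 3 groups of 3 samples. Control libraries were from MC3T3-E1, a clonal osteoblast line from mouse calvaria that lays down mineralizing matrix under osteogenic media. SB216763 libraries were from the same line treated with the GSK3 inhibitor SB216763 at 10 μM for 14 days, and EC libraries were from untreated pulmonary ECs isolated by FACS. No group carried a named genetic change. The medium, the time in culture of the control cells, and the strain and age of the EC donors are not given in the sources used here. Whether replicates were separate cultures or animals is also not given, so the p-values below measure the spread between these samples, which may be technical.

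Bone mineral starts in matrix vesicles, small membrane sacs shed by osteoblasts, and grows onto collagen when phosphate is plentiful and pyrophosphate is scarce. PHOSPHO1 and the sphingomyelinase SMPD3 work in sequence on membrane lipid: SMPD3 releases phosphocholine, and PHOSPHO1 frees phosphate from it. ENPP1 makes pyrophosphate, which blocks crystal growth, and the tissue-nonspecific alkaline phosphatase ALPL breaks it down. SLC20A1 and SLC20A2, also called PiT1 and PiT2, carry sodium and phosphate into cells. PHEX is a cell-surface endopeptidase of bone cells whose loss raises circulating FGF23 and wastes phosphate, and MGP is a vitamin K-dependent matrix protein that keeps arteries and cartilage free of mineral.

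The libraries held 30990107 to 68946333 counts, so 3 counts corresponded to between 0.0435 and 0.0968 CPM. CPM are counts scaled to a common library size, here with TMM normalization, which is also meant to adjust for differences in library composition. The 7 osteoblast markers checked (Sp7, Runx2, Col1a1, Col1a2, Ibsp, Bglap and its near-identical copy Bglap2) summed to between 43891 and 59316 CPM in the control libraries, between 8072 and 8345 CPM after SB216763, and between 43.4 and 62.8 CPM in ECs. In MC3T3 libraries these sums were mostly Col1a1 and Col1a2, with means of 24511 and 27831 CPM in the controls and 2732 and 5322 CPM after SB216763. The 9 endothelial markers summed to between 6860 and 7010 CPM in ECs, between 2.91 and 3.59 CPM in the controls, and between 2.76 and 3.33 CPM after SB216763. With SB216763, 6 of the 7 osteoblast markers fell and 0 of the 9 endothelial markers changed in edgeR's quasi-likelihood test at a false discovery rate (FDR) under 0.01. By the same rule 64.9% of all genes tested passed in either direction. Of the osteoblast markers, 4 fell by at least 2 on the log2 scale, Runx2 fell by 0.44, and Bglap2 did not pass. At an unadjusted p under 0.05, 1 of the 9 endothelial markers was lower and 0 were higher, and DESeq2 and limma-voom called 0. Of the 4 smooth muscle markers, 3 fell by the same FDR rule. Myh11, at 0.103 ± 0.0075 CPM in the controls and 0.137 ± 0.0750 CPM after SB216763, did not. Acta2 was 2915 ± 95.8 CPM in the controls and 144 ± 9.10 CPM after SB216763 (SD, n = 3). Cnn1 and Tagln were scarce, with control means of 0.202 and 1.89 CPM. The 4 chondrocyte markers summed to between 54.6 and 65.8 CPM in the controls and between 118 and 122 CPM after SB216763. Most of this was Sox9, at 46.5 ± 5.28 CPM in the controls and 101 ± 0.609 CPM after SB216763. Acan and Col10a1 had at most 2 counts in any control library and 0 in the treated libraries. The adipocyte, leukocyte and epithelial markers each summed to under 2 CPM in all MC3T3 libraries. The part of these shifts in the results below was not tested. In bulk RNA, fewer cells of a type and less RNA per cell cannot be told apart.

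Enpp1 rose with SB216763 while Alpl, Smpd3 and Phospho1 fell. Mgp and Slc20a1 fell by less, Slc20a2 rose slightly, and Phex did not pass the test. A gene was called when its log2 fold change was at least 2 in either direction and its FDR, by Benjamini-Hochberg adjustment over all genes tested, was under 0.01. By this rule 1 of the 8 genes was higher, beside 3.81% of all genes tested, and 3 were lower, beside 5.84% of all genes tested. By the FDR alone 2 were higher and 5 lower, that is 7 of 8, where 64.9% of all genes tested passed in either direction. The 3 treated and 3 control libraries did not overlap for any of the 8 genes, which held for 73.2% of all genes tested. The median log2 fold change was -1.25 over the 8 genes and 0.01 over all genes tested.

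**Figure D1:**
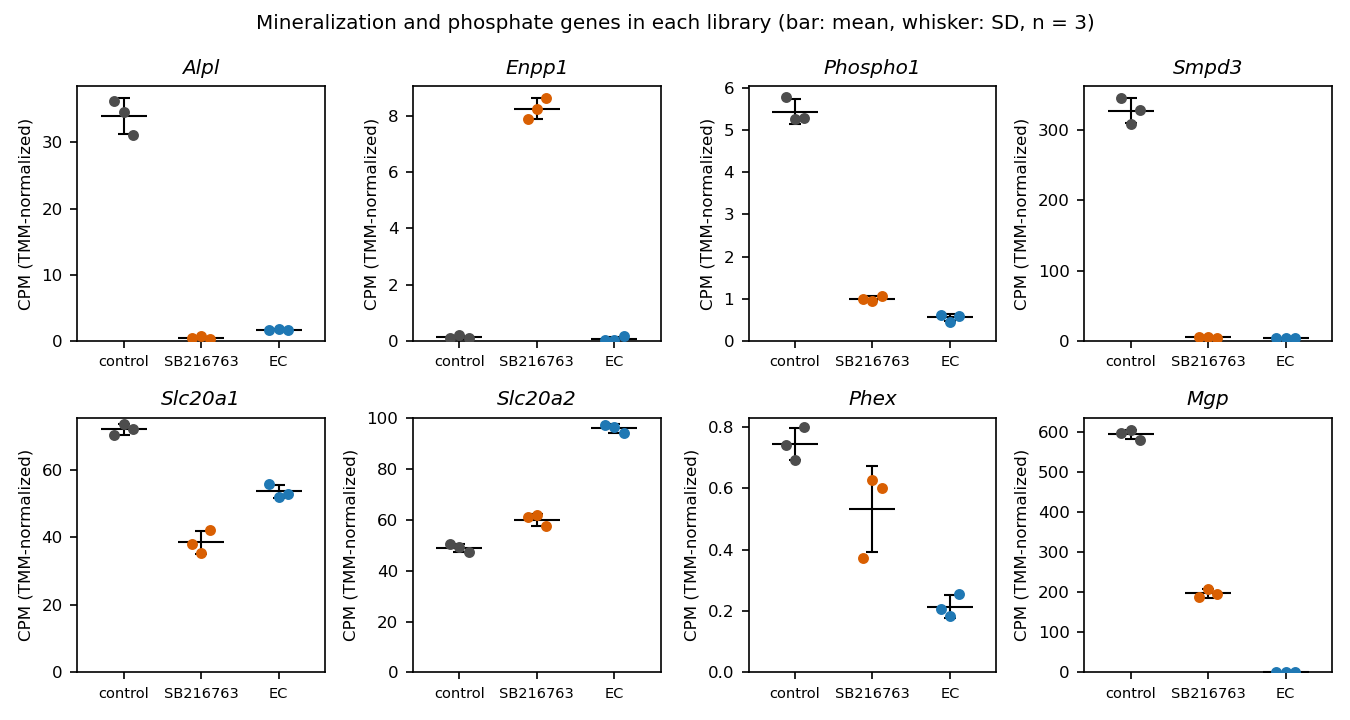
TMM-normalized CPM of the 8 genes in each library, by group: points are libraries, the horizontal bar is the mean and the whisker the SD (n = 3), on linear axes that start at 0. Alpl, Smpd3 and Phospho1 stand high in the controls alone, Enpp1 stands high after SB216763 alone, at 7.88 to 8.63 CPM, and Slc20a2 is highest in ECs, at 94.2 to 97.5 CPM.

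The pyrophosphate pair moved in opposite directions. Alpl lies on the minus strand at chr4:137741733-137796384 (GRCm38, GENCODE M21), and no other annotated gene overlaps it. Its levels were 36.3, 34.7 and 31.05 CPM in the controls, 0.373, 0.678 and 0.354 CPM after SB216763, and 1.70, 1.74 and 1.69 CPM in ECs. Every control library thus lay far above every treated and EC library, and the treated libraries lay below the ECs as well. The raw counts behind the treated values were 13, 26 and 13, against 894 to 2305 in the controls. With SB216763, Alpl fell by 6.17 on the log2 scale, or 71.8-fold (SE 0.13, edgeR adjusted p = 8.98e-16). Control osteoblasts exceeded ECs by a log2 fold change of 4.32 (SE 0.10, edgeR adjusted p = 1.18e-15). Treated osteoblasts were 3.59-fold below ECs, a log2 fold change of -1.84 (SE 0.21, edgeR adjusted p = 6.66e-07), under the fold limit of the call. Without SB216763 replicate 2 it was -2.22 and passed that limit.

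Enpp1 lies on the minus strand at chr10:24637914-24712159, also without an overlapping gene. Counts were 7, 11 and 3 in the controls and 1, 1 and 7 in ECs, and 275, 317 and 317 after SB216763. In CPM these were 0.110, 0.200 and 0.104 in the controls, 7.88, 8.26 and 8.63 after SB216763, and 0.023, 0.030 and 0.162 in ECs. The treated libraries stood apart from both other groups, whose libraries overlapped each other. Enpp1 rose with SB216763 by 5.83 on the log2 scale (SE 0.22, edgeR adjusted p = 1.33e-12), and 909 summed counts against 21 gave a ratio of 57.9 after scaling for depth, with an exact 95% interval of 37.7 to 94.1 for counting error only. Against ECs the treated osteoblasts were higher by 6.72 (SE 0.26, edgeR adjusted p = 6.42e-13), and by 8.16 without EC replicate 3. Enpp1 passed the count filter only through the treated libraries, and was not kept in a fit of control and EC libraries alone. In the fit of all groups, the log2 fold change of control osteoblasts against ECs was 0.90 (SE 0.58, edgeR adjusted p = 0.161). With 21 counts against 9, that ratio was 1.90 with an exact interval of 0.833 to 4.70. The log2 fold change was 2.33 and passed the call without EC replicate 3, which held 7 of the 9 EC counts, so whether these groups were called depended on 1 library.

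Promoter sequence is shown for the called genes for which the RefSeq table used here holds one, since these are the genes whose transcripts moved most. Each window runs from 250 bases before to 50 bases after an annotated start (RefSeq, GRCm38.p6), 5′ to 3′ on the transcribed strand. Capitals mark matches on either strand to 3 motifs, spelled CTTTGAT for the TCF/LEF factors, TGTGGT for the RUNX factors and TATAAA for the TATA box. No window shown held more than 1 match, so none overlapped. Alpl has 2 starts, at the windows chr4:137796335-137796634 and chr4:137766426-137766725 of the minus strand. The Enpp1 window is chr10:24712110-24712409 of the minus strand, and that of Phospho1 is chr11:95824250-95824549 of the plus strand.
Alpl, first window: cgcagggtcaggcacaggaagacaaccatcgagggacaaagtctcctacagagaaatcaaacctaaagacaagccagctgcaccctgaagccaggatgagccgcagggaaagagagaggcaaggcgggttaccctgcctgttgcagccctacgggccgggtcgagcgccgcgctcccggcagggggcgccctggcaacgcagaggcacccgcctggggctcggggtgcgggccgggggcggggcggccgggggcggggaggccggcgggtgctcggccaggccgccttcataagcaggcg
Alpl, second window: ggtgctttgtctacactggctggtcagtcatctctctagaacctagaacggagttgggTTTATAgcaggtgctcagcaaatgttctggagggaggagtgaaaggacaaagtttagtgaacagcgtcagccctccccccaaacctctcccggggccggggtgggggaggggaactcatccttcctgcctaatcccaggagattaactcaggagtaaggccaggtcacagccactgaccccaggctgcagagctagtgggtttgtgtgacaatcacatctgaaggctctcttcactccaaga
Enpp1: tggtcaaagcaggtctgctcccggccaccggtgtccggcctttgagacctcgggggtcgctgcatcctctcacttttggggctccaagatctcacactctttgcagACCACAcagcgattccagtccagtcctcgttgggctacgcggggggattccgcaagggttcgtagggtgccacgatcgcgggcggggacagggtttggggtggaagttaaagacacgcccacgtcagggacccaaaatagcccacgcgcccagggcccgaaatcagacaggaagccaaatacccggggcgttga
Phospho1: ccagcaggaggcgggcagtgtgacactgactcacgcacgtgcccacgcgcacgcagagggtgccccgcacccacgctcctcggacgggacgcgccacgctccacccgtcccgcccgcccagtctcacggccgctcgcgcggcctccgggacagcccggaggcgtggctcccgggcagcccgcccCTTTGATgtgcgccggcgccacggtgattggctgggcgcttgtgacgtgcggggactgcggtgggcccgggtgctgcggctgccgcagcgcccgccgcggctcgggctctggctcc
The first Alpl window held none of the 3 motifs and was 70% GC. Its second window was 54.3% GC and held a TATA box on the opposite strand, 192 bases before the start. Enpp1 held the RUNX motif on the opposite strand 144 bases before its start, and Phospho1 held the TCF/LEF motif on its own strand 66 bases before its start. Over all 32851 windows in the table, 3.73% held the TCF/LEF motif, 16.8% the RUNX motif and 13.6% the TATA box, with a median GC of 52.7%. A match is a description of the letters only, as no binding was measured in these libraries. Of the 8 genes, 5 had a window, while Smpd3, Slc20a2 and Mgp were not in the table.

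The balance of the pair was read within each library, where scaling between libraries plays no part. Per kilobase of exon, there were 837, 440 and 758 Alpl counts for each Enpp1 count in the controls. After SB216763 there were 0.120, 0.209 and 0.104, and in ECs 188, 145 and 26.5. Transcripts of the enzyme that breaks pyrophosphate down thus outnumbered those of the enzyme that makes it in all control and EC libraries, and were outnumbered in all treated libraries. The mean log2 ratio was 9.35 ± 0.50 in the controls, -2.86 ± 0.53 after SB216763 and 6.49 ± 1.54 in ECs (SD, n = 3). Treated minus control was -12.21, control minus EC 2.86, and treated minus EC -9.35, and each gave p = 0.1 in a 2-sided exact permutation test, the smallest p that 3 against 3 libraries allow, and 0.12 after adjustment over the 6 ratio tests. The Enpp1 counts of 1 to 11 in control and EC libraries set the precision of those ratios.

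**Figure D2:**
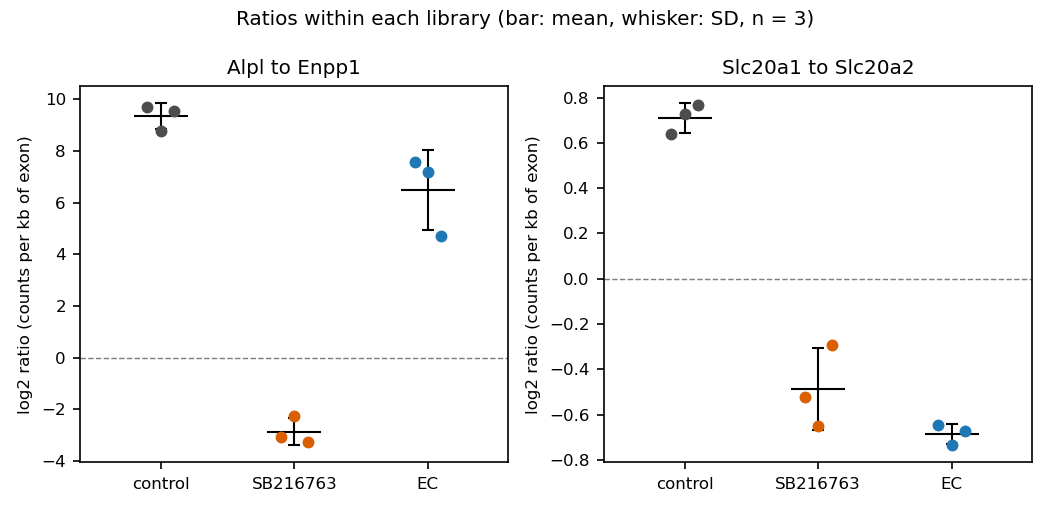
Log2 ratio of Alpl to Enpp1 (left) and of Slc20a1 to Slc20a2 (right) within each library, from counts per kilobase of exon; points are libraries, bars the mean and whiskers the SD (n = 3), and the dashed line marks equal levels. The Alpl to Enpp1 ratio lies below the line in the treated libraries alone, and the Slc20a1 to Slc20a2 ratio lies above it in the controls alone.

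Transcripts of both enzymes of the step from membrane lipid to phosphate fell with SB216763. Smpd3, on the minus strand at chr8:106252548-106337988, was at 345, 309 and 329 CPM in the controls. After SB216763 it was at 5.88, 5.37 and 4.47 CPM, and in ECs at 4.01, 3.62 and 4.03 CPM. The treated libraries thus came close to the ECs while remaining above them in each library. With SB216763 it fell by 5.97 on the log2 scale, or 62.5-fold (SE 0.08, edgeR adjusted p = 1.24e-17). Control osteoblasts exceeded ECs by 6.39 on the same scale (SE 0.08, edgeR adjusted p = 5.38e-19). What remained between treated osteoblasts and ECs was a log2 fold change of 0.42 (SE 0.10, edgeR adjusted p = 0.00123). Exons of Smpd3 overlap those of Prmt7 on the opposite strand, and the strand setting of the counting is not given, so reads in the shared stretch cannot be assigned. Prmt7 had 1758 to 3995 counts in the controls, below the 9459 to 21879 of Smpd3. After SB216763 Prmt7 had 969 to 1139 counts against 164 to 206 for Smpd3, and in ECs 1704 to 2403 against 119 to 175. The part of shared reads in the low treated and EC values of Smpd3, and in the difference between them, was not tested.

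Phospho1, on the plus strand at chr11:95824499-95832140, had a much lower level. It was at 5.78, 5.26 and 5.28 CPM in the controls, 1.003, 0.938 and 1.06 CPM after SB216763, and 0.618, 0.457 and 0.602 CPM in ECs. The 3 groups did not overlap, with the treated libraries between the other two. With SB216763, Phospho1 fell by 2.44 on the log2 scale, or 5.44-fold (SE 0.13, edgeR adjusted p = 8.59e-11). When the fall was tested against the fold limit itself, the adjusted p in edgeR was 0.0101, just outside the FDR limit. Controls exceeded ECs by 3.26 (SE 0.14, edgeR adjusted p = 3.52e-12), and treated osteoblasts exceeded ECs by 0.82 (SE 0.19, edgeR adjusted p = 9.88e-04). Its exons overlap Zfp652 on the same strand and Abi3 on the opposite strand. Zfp652 had 3324 to 7315 counts in the controls, against 152 to 367 for Phospho1 in the controls. After SB216763 Zfp652 had 4244 to 4954 counts against 35 to 39 for Phospho1, and in ECs 1608 to 2208 against 15 to 27. Abi3 had 26 to 49 counts in control, 1 to 3 in treated and 231 to 322 in EC libraries. The part of shared reads in the Phospho1 values, and in the differences between groups, was not tested.

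Transcripts of the phosphate importers changed little by comparison, and in opposite directions. Slc20a1, on the plus strand at chr2:129198764-129211616, was at 70.4, 73.6 and 72.1 CPM in the controls, 38.1, 35.4 and 42.2 CPM after SB216763, and 55.9, 52.0 and 53.0 CPM in ECs. The treated libraries were thus the lowest and the ECs lay between. With SB216763 it fell by 0.90 on the log2 scale, or 1.87-fold (SE 0.06, edgeR adjusted p = 6.64e-10). Controls exceeded ECs by 0.42 (SE 0.06, edgeR adjusted p = 3.22e-06), and treated osteoblasts were below ECs, at -0.48 (SE 0.06, edgeR adjusted p = 1.15e-06). Slc20a2, on the plus strand at chr8:22476788-22569612, was at 50.4, 49.5 and 47.3 CPM in the controls, 61.0, 61.8 and 57.5 CPM after SB216763, and 97.5, 96.4 and 94.2 CPM in ECs. Here the order was control, treated, EC, again without overlap. The rise with SB216763 was 0.29 on the log2 scale, or 1.22-fold (SE 0.05, edgeR adjusted p = 2.84e-05). Controls lay below ECs by a log2 fold change of -0.97 (SE 0.04, edgeR adjusted p = 7.41e-12), and treated osteoblasts by -0.68 (SE 0.04, edgeR adjusted p = 6.66e-10). The directions of both held under every scaling tried. Exons of Slc20a1 overlap Gm4430 and 9830144P21Rik, and those of Slc20a2 overlap Smim19, all on the opposite strand. Smim19 had 612 to 1332 counts in the controls, against 1361 to 3199 for Slc20a2. After SB216763 Smim19 had 1082 to 1242 counts against 2110 to 2372, and in ECs 638 to 789 against 3167 to 4256. Gm4430 and 9830144P21Rik had at most 465 counts in any library, against at least 1329 for Slc20a1. The part of shared reads in the small rise of Slc20a2, and in the order of the 2 importers, was not tested.

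Per kilobase of exon, Slc20a1 exceeded Slc20a2 in the controls, at 1.56, 1.66 and 1.70 counts to 1. After SB216763 the ratio was 0.696, 0.638 and 0.817, and in ECs 0.639, 0.601 and 0.627. By the counts as deposited, the leading importer was Slc20a1 in the controls and Slc20a2 in the other groups. Whether reads in shared exons were counted or left out is not given. Mean log2 ratios were 0.71 ± 0.06, -0.49 ± 0.18 and -0.68 ± 0.05 (SD, n = 3) in control, treated and EC libraries. Control and treated libraries did not overlap, with p = 0.1 in the 2-sided exact permutation test, the smallest it can give, and the same held for control against EC. Treated and EC libraries overlapped, with a difference of 0.20 and p = 0.2 in the same exact test.

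Phex was scarce in all groups. On the minus strand at chrX:157162075-157415312, it had 23 to 47 counts in the controls, 13 to 24 after SB216763 and 6 to 11 in ECs. These correspond to 0.740, 0.692 and 0.799 CPM, then 0.373, 0.626 and 0.599 CPM, then 0.206, 0.183 and 0.255 CPM. The groups did not overlap, but the control and treated libraries were separated by a small gap. For SB216763 against control the log2 fold change was -0.46, with a 95% interval of -0.93 to 0.02 (SE 0.24, edgeR adjusted p = 0.101). From 59 counts against 108 the ratio was 0.731, with an exact counting interval of 0.523 to 1.01. Controls exceeded ECs by 1.75 on the log2 scale (SE 0.28, edgeR adjusted p = 3.25e-05), and treated osteoblasts exceeded ECs by 1.29 (SE 0.31, edgeR adjusted p = 0.0012).

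Mgp, the calcification inhibitor, was the most abundant of the 8 in the osteoblast libraries. It lies on the minus strand at chr6:136872435-136875823 and overlaps no other gene. Controls held 597, 604 and 581 CPM, treated cells 187, 208 and 196 CPM, and ECs 0.252, 0.944 and 0.533 CPM from 11, 31 and 23 counts. All treated libraries were below all controls, and both were far above ECs. With SB216763, Mgp fell by 1.59 on the log2 scale, or 3.01-fold (SE 0.08, edgeR adjusted p = 7.79e-11), under the fold limit of the call. Against ECs it was higher by 10.08 in controls (SE 0.15, edgeR adjusted p = 2.60e-18) and by 8.49 in treated cells (SE 0.15, edgeR adjusted p = 2.14e-17). An exact interval for the control to EC ratio of summed counts, 1098, was 861 to 1423, for counting error only.

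Every call among the 8 genes against ECs was toward a higher level in osteoblasts. In controls 4 genes were called higher than in ECs (Alpl, Phospho1, Smpd3 and Mgp), beside 9.87% of all genes tested, and 0 lower, beside 13.5%. By the FDR alone 6 were higher and 1 lower, where 76.9% of all genes tested passed, and 7 of the 8 did not overlap, which held for 84.0% of all genes. The 8 include Enpp1, which was kept for testing only through the treated libraries. After SB216763, Enpp1 and Mgp were called higher than in ECs, beside 10.3% of all genes tested, and 0 lower, beside 15.0%. By the FDR alone 5 were higher and 3 lower, where 78.6% passed, and all 8 did not overlap, as for 85.4% of all genes. For the lower calls of 0, 1 gene in the first comparison and 3 in the second were lower at an unadjusted p under 0.05, and DESeq2 and limma-voom called 0 as well. Both comparisons use the same EC libraries, and the control libraries enter 2 of the 3 comparisons, so the values for a gene are not independent. The median log2 fold change over the 8 genes was 2.505 for control against EC and 0.62 for SB216763 against EC, where all genes tested had medians of -0.01 and -0.02.

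**Figure D3:**
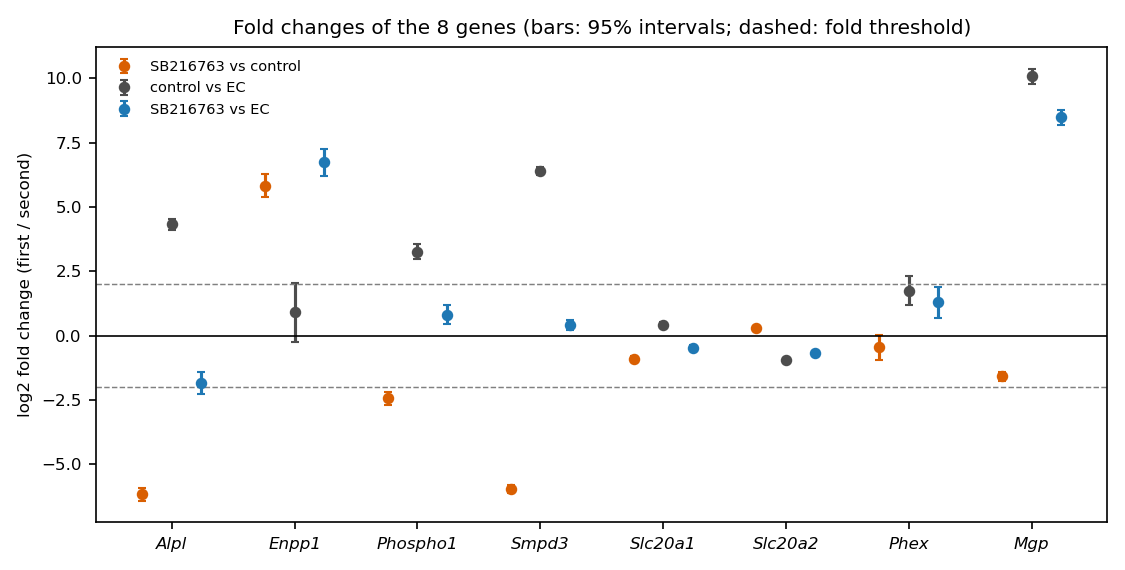
Log2 fold change of each gene in the 3 comparisons, as the first-named group over the second, with bars of 95% intervals; dashed lines mark the fold limit of 2. Alpl, Smpd3 and Phospho1 lie below the lower line with SB216763 and above the upper line in controls against ECs, whereas Enpp1 lies above the upper line in both comparisons of treated cells.

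Levels can be compared between genes per length of exon, as RPKM, which here divides CPM by the exon length in kilobases. In the controls the mean RPKM ran from Mgp at 500, Smpd3 at 62.6 and Slc20a1 at 12.9 through Alpl at 8.43, Slc20a2 at 7.89 and Phospho1 at 2.68 to Phex at 0.118 and Enpp1 at 0.0135. Alpl and Slc20a2 overlapped there between libraries, and the other neighbours did not. With SB216763 the order was Mgp at 166, Slc20a2 at 9.67, Slc20a1 at 6.91, Smpd3 at 1.001, Enpp1 at 0.805, Phospho1 at 0.493, Alpl at 0.116 and Phex at 0.0846, of which the last pair overlapped. Alpl had moved from the level of Slc20a2 to that of Phex, and Enpp1 from the bottom to above Phospho1. In ECs the importers led, with Slc20a2 at 15.4 and Slc20a1 at 9.61 RPKM. Smpd3 at 0.743, Mgp at 0.486 and Alpl at 0.423 followed, where Mgp overlapped both of its neighbours. Phospho1 at 0.276, Phex at 0.0341 and Enpp1 at 0.0070 came last. Among all genes tested, Mgp ranked at percentile 99.5 of RPKM in controls, 98.7 after SB216763 and 22.04 in ECs. Smpd3 went from percentile 95.3 in controls to 31.4 after SB216763 and Alpl from 65.2 to 13.2, while Enpp1 went from 5.31 to 29.1.

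Other genes of the same chemistry were read from lists of known roles, also chosen with earlier results of these data known. Of 7 further genes of pyrophosphate supply and breakdown, 6 were tested for SB216763 against control, of which 2 were called higher and 1 lower, with a median log2 fold change of -0.04. Beside this list and those below, 3.81% of all genes tested were called higher and 5.84% lower in this comparison. Ank, the mouse symbol of the pyrophosphate exporter ANKH, rose from 74.2 ± 0.924 to 364 ± 10.7 CPM (SD, n = 3), a log2 fold change of 2.29 (SE 0.04, edgeR adjusted p = 2.68e-16). Enpp3, an ectonucleotidase related to Enpp1, rose from 0.868 ± 0.102 to 3.69 ± 0.241 CPM, by 2.08 (SE 0.16, edgeR adjusted p = 9.52e-09), and by 1.99, under the fold limit, without control replicate 1. Ppa1, the cytosolic pyrophosphatase, went from 77.6 ± 3.70 to 19.0 ± 1.43 CPM and fell by 2.03 (SE 0.06, edgeR adjusted p = 2.54e-14). Its log2 fold change was -1.83 with library size only and -1.97 without SB216763 replicate 3, both under the fold limit. In ECs Ank was at 135 ± 1.92 CPM and Ppa1 was between 90.5 and 93.3 CPM.

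Of 5 other phosphate carriers, 3 were tested and 0 were called for SB216763 against control by edgeR, DESeq2 or limma-voom. At an unadjusted p under 0.05, 1 was higher and 2 were lower. Xpr1, the phosphate exporter, went from 78.9 ± 6.40 to 133 ± 0.299 CPM, a rise of 0.75 on the log2 scale (SE 0.06, edgeR adjusted p = 9.72e-09). Slc25a3, the mitochondrial phosphate carrier, fell by 0.69 (SE 0.05, edgeR adjusted p = 5.20e-09). Slc34a1, a renal transporter, was at 0.136 to 0.556 CPM in the osteoblasts (edgeR adjusted p = 0.0549).

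Of 12 genes of the hormonal phosphate axis, which links bone, kidney and vitamin D, 8 were tested, with 2 called higher and 2 lower. Dmp1, an acidic matrix protein of osteocytes, was at 0.110, 0.237 and 0.208 CPM in the controls and at 66.6, 65.3 and 67.1 CPM after SB216763, a rise of 8.53 on the log2 scale (SE 0.11, edgeR adjusted p = 1.24e-17). Fam20c, the kinase of secreted phosphoproteins, rose from 48.7 ± 2.37 to 279 ± 13.5 CPM, by 2.52 (SE 0.05, edgeR adjusted p = 6.18e-16). The parathyroid hormone receptor Pth1r went from 384 ± 3.39 to 34.0 ± 2.71 CPM and so fell by 3.50 (SE 0.06, edgeR adjusted p = 4.41e-17). Galnt3, which glycosylates FGF23, was at 1.73 to 2.02 CPM in the controls and had 0, 3 and 0 counts in the treated libraries, so no fold is given. Fgf23 itself had no counts in any MC3T3 library and was not tested. Dmp1 is among the 5 osteocyte markers checked, of which 3 were tested and Dmp1 alone passed. Pdpn was at 97.0 ± 5.84 CPM in the controls and 97.7 ± 5.27 CPM after SB216763, and Mepe, Sost and Fgf23 had at most 2 counts in any MC3T3 library.

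Among 12 genes of mineral-binding proteins and the vitamin K cycle, 11 were tested, with 2 called higher and 1 lower and a median of 0.10. Spp1, encoding osteopontin, rose to 4556 ± 178 CPM after SB216763, by 4.44 on the log2 scale (SE 0.07, edgeR adjusted p = 2.27e-17). Ibsp, encoding bone sialoprotein, went from 152 ± 10.5 to 11.4 ± 1.43 CPM and fell by 3.74 (SE 0.08, edgeR adjusted p = 8.58e-16). Transcripts of the 2 phosphoproteins thus moved apart. Fetub, encoding fetuin-B, rose to 1.22 ± 0.214 CPM, by 2.52 (SE 0.29, edgeR adjusted p = 9.76e-07). Ggcx, the carboxylase that MGP needs for its function, was at 74.0 ± 4.62 CPM in controls and 79.0 ± 1.32 CPM after SB216763 (edgeR adjusted p = 0.107).

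**Figure D4:**
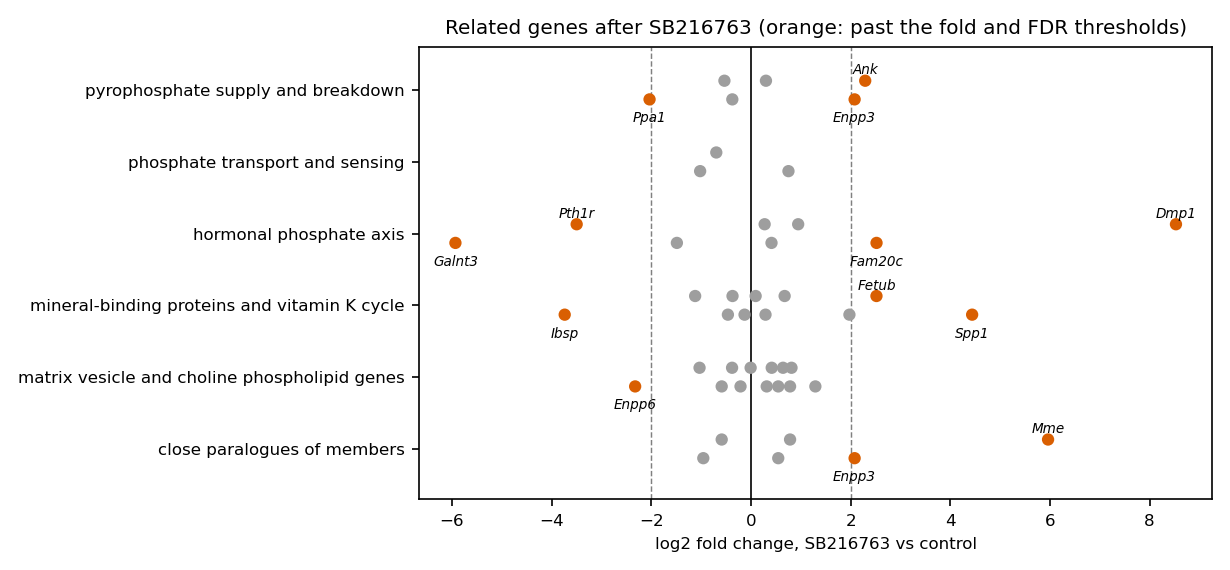
Log2 fold change of SB216763 against control for the tested genes of 6 lists of related function, 1 point per gene in each list. Genes on more than 1 list, such as Enpp3, are drawn in each. Orange points passed both the fold and the FDR limits, dashed lines mark the fold limit, and points are offset vertically only to separate them. Dmp1, Mme and Spp1 lie farthest to the right; Galnt3, with 3 counts in all treated libraries together, is drawn at a fitted value that depends on the prior count.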

How the data were processed

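The data were 9 RNA-Seq libraries, 3 each from control MC3T3-E1 cells, SB216763-treated MC3T3-E1 cells and pulmonary ECs. The authors aligned and counted the reads with STAR and deposited whole-number read counts per gene, not normalized, in 1 table. The submitters' processing notes name STAR 2.5.3a and GRCm38. The annotation and strand setting are not given in the sources used here. Groups were read from each sample's title and treatment entry, since the labels give every sample the same treatment text. All 9 columns matched a library. Symbols, coordinates and exon lengths for 50376 identifiers came from GENCODE M21.

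The counts were fitted in R 4.3.3 with edgeR 4.0.16 (filterByExpr, TMM, quasi-likelihood F-test, 3 groups in 1 model). The fold limit and FDR followed the study's methods. Fold changes used a prior count of 0.125, and standard errors were derived from the fold change and F. Exact intervals of count ratios cover counting error only, while 95% intervals of fold changes come from the standard error over libraries. Ratios were tested by 2-sided exact permutation. On simulated counts of SB216763 against control, edgeR called 200 of 200 genes simulated with a log2 change of 3 and 0 unchanged genes of 15531 in all. Changed genes were drawn without those at very low levels, all genes had the same spread, and the change lay past the fold limit. The simulation therefore does not cover scarce genes such as Phex, or changes near the limit such as that of Phospho1. Alternatives were DESeq2 1.42.0, limma-voom (limma 3.58.1), other scalings, no filter, fits of 2 groups, other thresholds, a replicate block and leaving out each library. The 8 genes and all gene lists were chosen with earlier results of these data known. Named genes are the 8, the list genes past the call with SB216763 (up to 4 per list by fold change), members that define a list, and the 2 genes most like each of the 8. Anxa2, Slc34a1 and Smpd1 were named after their values were seen.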

Additional observations from a re-analysis of the deposited data

How the results depend on the processing

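Of 407 values of the 8 genes' fold changes under alternatives, 405 kept their direction and their side of the threshold. In the other 2, a gene passed it on leaving out 1 library: Alpl in SB216763 against EC without SB216763 replicate 2, at -2.22, and Enpp1 in control against EC without EC replicate 3, at 2.33, each with 1 fewer sample. The number of the 8 called lower in SB216763 against EC was 0, rose to 1 with the fold limit at a log2 of 1, and ranged from 0 to 1 when each library was left out. From plain counts, the mean log2 ratio of Alpl to Enpp1 was 8.01 in controls and -4.21 after SB216763, and that of Slc20a1 to Slc20a2 was 0.55 in controls and -0.84 in ECs. These moved by the genes' exon lengths, which drop out of differences between groups. With library size only, Smpd4 in SB216763 against control had a log2 fold change of 0.20 (-0.0052 with TMM), where the median of all genes shifted by 0.20. That scaling shifted control against EC by -0.13, and no filter by -0.12. Over all genes, testing against that fold limit itself called 318 higher with SB216763, where 592 passed the call. Of the 8 genes it called 2 lower instead of 3, without Phospho1. With the limit at a log2 of 1, 1726 were higher and 2015 lower in SB216763 against control, 2716 and 3295 in control against EC, and 2978 and 3608 in SB216763 against EC. The replicate block left the counts of the 8 genes at 1 higher and 3 lower in SB216763 against control. Deviations of each gene from its group mean correlated at -0.039 to 0.123 between same-numbered libraries, so the numbers were not taken as pairs. Depth limits Enpp1 in control and EC libraries, and Phex.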

Other observations

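Among 13 further genes of matrix vesicles and choline phospholipids, all tested, 1 was called lower with SB216763 and 0 higher by edgeR, DESeq2 or limma-voom, although 7 were higher at an unadjusted p under 0.05. By the FDR alone 7 rose and 5 fell, where 64.9% of all genes tested passed in either direction. The median log2 fold change was 0.32. Enpp6, a choline-specific phosphodiesterase, went from 0.658 ± 0.176 to 0.126 ± 0.0947 CPM (SD, n = 3) and fell by 2.32 (SE 0.50, edgeR adjusted p = 6.26e-04), from 48, 25 and 22 counts in the controls and 1, 5 and 8 after SB216763. Its log2 fold change was -1.89 without SB216763 replicate 1 and -1.99 with a prior count of 2, both under the fold limit. Smpd1, the lysosomal sphingomyelinase, rose from between 47.8 and 49.2 to between 112 and 125 CPM, by 1.29 (SE 0.05, edgeR adjusted p = 5.39e-13), whereas its relative Smpd3 fell. Anxa2, a calcium-binding annexin of matrix vesicles, fell by 1.03 on the log2 scale (SE 0.05, edgeR adjusted p = 4.99e-11).

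Among 10 close paralogues of the 8 genes, 6 were tested, of which 2 were called higher, Enpp3 and Mme, and 0 lower. Enpp3 is also counted in the pyrophosphate list above. At an unadjusted p under 0.05, 2 paralogues were lower, and DESeq2 and limma-voom called 0 lower. Mme, which encodes neprilysin, an endopeptidase of the same family as PHEX, rose from 48.9 ± 4.61 to 3047 ± 105 CPM, by 5.96 (SE 0.08, edgeR adjusted p = 1.24e-17), and was at 16.1 to 17.0 CPM in ECs. The other alkaline phosphatases listed, Akp3, Alppl2 and Alpi, were listed at 0 counts in all 9 libraries, so Alpl was the alkaline phosphatase with counts here.

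The genes most like each of the 8 over the 9 libraries were found by the Euclidean distance between log2 CPM values centred on each gene's mean, a description with no test. For Smpd3 the closest were Npnt, encoding nephronectin, at a distance of 0.403, and Ripor2 at 0.805, where the median over all genes was 8.90. Npnt was at 4459 CPM in controls, 61.3 CPM after SB216763 and 46.9 CPM in ECs. For Alpl they were Fgd3 at 0.756 and Smtnl2 at 1.18 (median 7.96), and for Phospho1 Itga9 at 0.382 and Snhg12 at 0.448 (median 4.40). For Enpp1 they were Abca8b at 1.51 and Aox3 at 1.60 (median 8.70), with Abca8b at 0.800, 47.9 and 0.702 CPM in control, treated and EC libraries. Slc20a1 had Limk2 at 0.143 and Smyd5 at 0.165 (median 1.99), and Slc20a2 had Galnt1 at 0.102 and Capn2 at 0.126 (median 2.02). Phex had Gpr19 at 0.500 and Asic1 at 0.583 (median 2.62), and Mgp had Ptn at 0.723 and Srpx at 0.858 (median 13.4). These distances are over 9 libraries in 3 groups, so they mostly reflect the group means.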
